A study of Bos taurus with 15 samples.

Results

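ACTB (ENSBTAG00000026199), GAPDH (ENSBTAG00000014731), YWHAZ (ENSBTAG00000000236), B2M (ENSBTAG00000012330) and PPIA (ENSBTAG00000012003) are 5 genes often used as internal references when gene expression is measured by quantitative PCR. They were taken by Ensembl ID for that use, by a rule with no measured value in it, and are 5 of the 27607 genes in the raw count table. All 5 were among the 12270 genes with a CPM (counts scaled to a common library total) of 1 or more in 8 or more of the 15 heifers. The data are RNA-seq counts from peripheral white blood cells (PWBC), the nucleated blood cells that remain once the red cells of a sample have been lysed. Blood was drawn at weaning from Angus-Simmental crossbred heifers that later went through one common breeding protocol with estrus synchronization and fixed-time artificial insemination (AI). After AI the heifers were exposed to fertile bulls. The paper treats heifers that conceived by natural service as a separate class and did not use them. The 8 heifers that became pregnant to AI (IDs 4, 6, 34, 40, 41, 43, 45 and 47) were compared with 7 others. The paper describes those 7 (IDs 3, 33, 37, 39, 42, 44 and 48, called not-pregnant below) as not pregnant by either route. The groups were thus assigned after sampling. One library per animal was sequenced with paired-end reads of 100 bp, which makes each heifer a replicate. The gene names come with the selection of the IDs, since the deposited tables list genes by Ensembl ID alone.

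A quantitative PCR result is usually expressed relative to 1 or more reference genes measured in the same sample. The method assumes that the reference differs little between samples and not at all between the groups compared, because any shift of the reference passes, with opposite sign, into every gene expressed relative to it. The 5 genes come from unrelated cell functions. ACTB encodes cytoplasmic beta-actin, the subunit of actin filaments that leukocytes rebuild as they move and take up particles. GAPDH is an enzyme of glycolysis. YWHAZ encodes the zeta member of a family of adaptor proteins that bind phosphorylated partners in signalling. B2M encodes beta-2-microglobulin, the light chain of the MHC class I molecules that present peptides on nearly all nucleated cells. PPIA encodes cyclophilin A, a prolyl isomerase that helps proteins fold and is the cellular target of cyclosporin. ACTB, GAPDH, YWHAZ and PPIA have processed pseudogene copies in mammalian genomes, so reads shared with such copies make their counts uncertain.

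Libraries held 15987111 to 24909038 counts on genes, with a median of 18037781 for pregnancy to AI and of 18571427 for the not-pregnant group. The 5 genes together took 0.775% to 1.18% of them. Levels are given on 2 scales, CPM, which corrects for library size only, and TMM-scaled CPM, in which edgeR's trimmed mean of M-values also corrects for composition. The scales differ between the groups, because the log2 TMM factor was higher in heifers pregnant to AI by 0.16 (95% interval 0.04 to 0.28, two-sided exact permutation test, p = 0.0131). Over the other 12265 kept genes on the TMM scale, 13 of 15 heifers lay nearer the mean profile of their own group. Heifers 4 (pregnant to AI) and 37 (not-pregnant) lay nearer the other group, so results that rest on them are also given without them. Leaving out heifers that resemble the other group tends to widen differences between groups, though not for every gene. The edgeR log2 fold change of PPIA was -0.19 without them and -0.21 with them. A p-value obtained without heifers 4 and 37 is therefore no valid test of a group difference. The cell type of the samples was not checked against markers, because no table used here pairs the Ensembl IDs with names. In these bulk samples, fewer cells of a type and less RNA per cell cannot be told apart. Levels are compared between heifers and not between genes, since the values are not per transcript length.

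B2M, the MHC class I light chain, was lower in heifers pregnant to AI on both scales. In TMM-scaled CPM its level in heifers pregnant to AI had a lowest value of 1388 (heifer 43), a median of 2168 and a highest value of 3199 (heifer 4). In not-pregnant heifers the lowest was 2390 (heifer 37), the median 3198 and the highest 4159 (heifer 3). The groups overlapped only through heifer 4, since the other 7 heifers pregnant to AI lay below every not-pregnant heifer, on this scale and in CPM. How many of all genes separate the groups as far was not counted, here or for the genes and ratios below. By edgeR with TMM, 4222 of the 12270 genes were at an unadjusted p under 0.05, so such separation may be common. Means and SDs were 2190 ± 520 (n = 8) and 3375 ± 636 (n = 7). By edgeR's quasi-likelihood test over 12270 genes the log2 fold change was -0.62 (SE 0.16, Benjamini-Hochberg adjusted p = 0.0302). B2M was the only one of the 5 genes called, which needed an adjusted p no higher than 0.05 together with a log2 fold change of 0.5 or more in either direction. That rule called 718 genes (5.85% of those tested), 269 of them lower in heifers pregnant to AI (2.19%). This count rests on single heifers. Without 1 heifer it was 80 (heifer 48, 74 higher and 6 lower) to 1875 (heifer 4, 854 higher and 1021 lower), and it moved by over 1.5 times for every heifer except 6 and 40. With single heifers left out, the adjusted p rose above 0.05 for 7 of the 15 (3, 34, 39, 42, 45, 47 or 48), to 0.0717 at most, while the log2 fold change stayed between -0.72 and -0.55. Without heifers 4 and 37 it was -0.79, with an edgeR adjusted p of 0.000575.

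PPIA, the cyclophilin, differed little in size but with a narrow spread. Its TMM-scaled CPM in heifers pregnant to AI ran from 601 (heifer 43) through a median of 640 to 704 (heifer 45). In not-pregnant heifers it ran from 675 (heifer 44) through a median of 759 to 806 (heifer 42). On this scale 6 of 7 not-pregnant heifers lay above every heifer pregnant to AI, and heifer 44 lay among them. Means and SDs were 653 ± 41.4 (n = 8) and 754 ± 48.4 (n = 7). The log2 fold change was -0.21 (SE 0.07, edgeR, Benjamini-Hochberg adjusted p = 0.0498), so PPIA met the adjusted p alone, as did 1491 genes (12.2%), and 713 of those were lower in heifers pregnant to AI (5.81%). Those counts were 93 and 10 without heifer 48, and 3765 and 2051 without heifer 4. That adjusted p rose above 0.05 for 13 of the 15 heifers when 1 was left out, reaching 0.104. It was 0.0511 with RLE size factors in edgeR, and with library size alone the log2 fold change was -0.05 with an edgeR adjusted p of 0.696. In CPM the groups overlapped widely, with means of 690 ± 56.7 (SD, n = 8) and 712 ± 80.0 (SD, n = 7).

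ACTB, the cytoskeletal actin, was variable in both groups. Its TMM-scaled CPM in heifers pregnant to AI had a lowest value of 3746 (heifer 41), a median of 4391 and a highest value of 7230 (heifer 4). In not-pregnant heifers the lowest was 4026 (heifer 37), the median 6767 and the highest 7535 (heifer 44). Heifer 4 lay within the upper range of the not-pregnant heifers and heifer 37 within the range of the heifers pregnant to AI. Means and SDs were 4628 ± 1099 (n = 8) and 6141 ± 1294 (n = 7). The log2 fold change of -0.41 (SE 0.16) did not pass the threshold (edgeR, Benjamini-Hochberg adjusted p = 0.0896). Without heifer 4 it was -0.53 with an edgeR adjusted p of 0.0101, without heifer 37 it was -0.49 with 0.0285, and without both it was -0.61 with 0.000866.

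GAPDH, the glycolytic enzyme, had nearly equal group means in CPM but not in TMM-scaled CPM. In CPM the 8 heifers pregnant to AI lay between 782 (heifer 6) and 825 (heifer 4), with a mean of 805 ± 17.6 (SD, n = 8). The 7 not-pregnant heifers lay between 725 (heifer 42) and 898 (heifer 3), with a mean of 807 ± 56.5 (SD, n = 7). The not-pregnant heifers were the more spread, with 2 of them above and 2 below the whole range of the heifers pregnant to AI. In TMM-scaled CPM the range was 695 (heifer 43) to 900 (heifer 4) with a median of 758 in heifers pregnant to AI, and 741 (heifer 37) to 976 (heifer 48) with a median of 874 in not-pregnant heifers. The means on this scale were 766 ± 60.9 (SD, n = 8) and 861 ± 106 (SD, n = 7), and the log2 fold change of -0.17 (SE 0.08) did not pass the threshold (edgeR, Benjamini-Hochberg adjusted p = 0.161). Without heifers 4 and 37 it was -0.24, with an edgeR adjusted p of 0.0255.

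YWHAZ, the signalling adaptor, had the fewest reads of the 5 genes, 1222 to 3673 per library, and no difference between groups was detectable. Its TMM-scaled CPM in heifers pregnant to AI ran from 83.3 (heifer 40) through a median of 126 to 171 (heifer 43). In not-pregnant heifers it ran from 90.9 (heifer 48) through a median of 120 to 138 (heifer 42). Of the 8 heifers pregnant to AI, 1 lay below and 3 lay above the range of the not-pregnant heifers, which fell inside theirs. Means and SDs were 124 ± 28.6 (n = 8) and 116 ± 17.6 (n = 7). The log2 fold change was 0.10 (SE 0.14, edgeR, Benjamini-Hochberg adjusted p = 0.640), and it was 0.02 without heifer 43 and 0.16 without heifer 40.

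**Figure D1:**
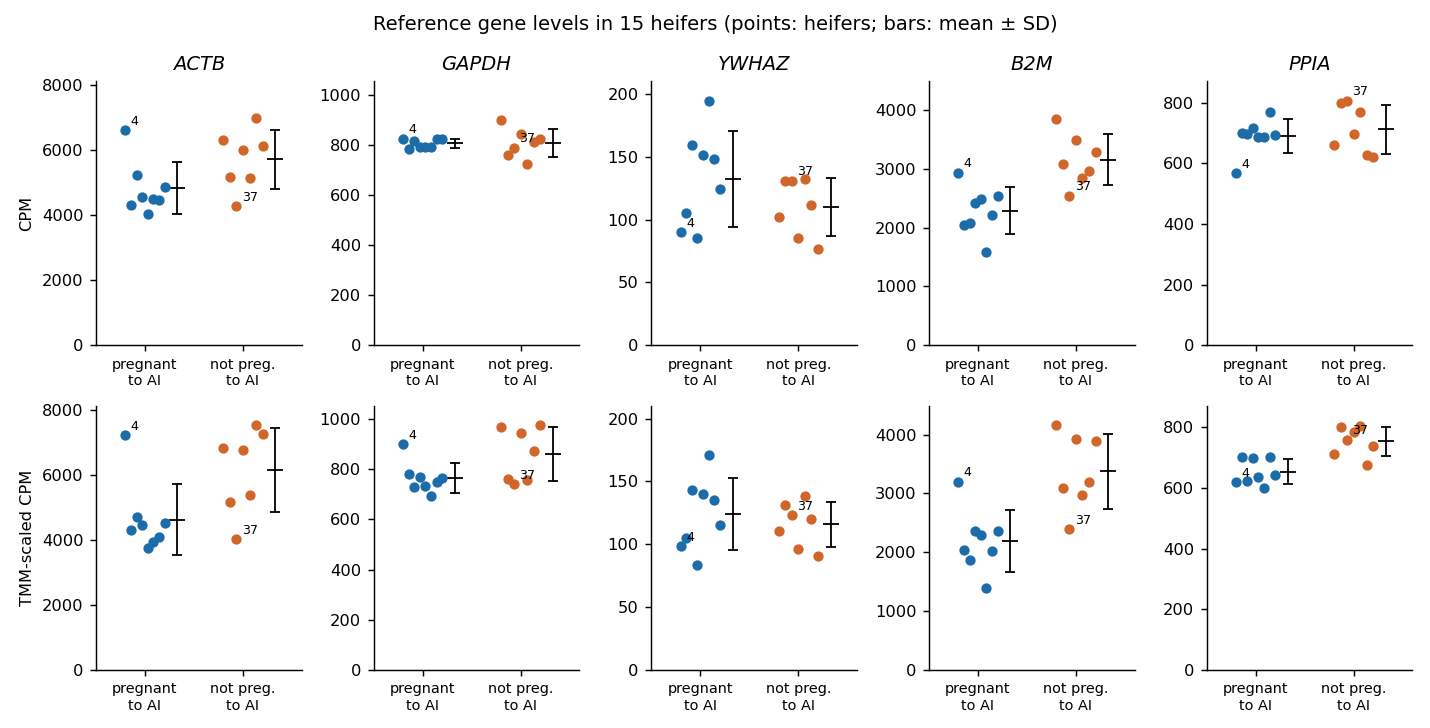
Level of each reference gene in each of 15 heifers, with CPM and TMM-scaled CPM in separate rows, heifers pregnant to AI beside not-pregnant heifers, points for heifers, and bars for mean ± SD (n = 8 and n = 7). B2M of 7 heifers pregnant to AI sits below all 7 not-pregnant heifers on both scales, while heifers 4 and 37, marked by ID, sit towards the other group for ACTB and B2M.

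The group difference was next measured on each scale with an exact permutation test over all 6435 ways to divide the heifers into 8 and 7, and a 95% interval from the same test. B2M differed by -0.64 in log2 TMM-scaled CPM (interval -0.99 to -0.29, p = 0.00311, exact permutation test) and by -0.47 in log2 CPM (interval -0.74 to -0.22, p = 0.00155, exact permutation test). The B2M difference was past 0.05 on both scales with each heifer left out in turn. PPIA differed by -0.21 in log2 TMM-scaled CPM (interval -0.31 to -0.10, p = 0.00218, exact permutation test) but by -0.04 in log2 CPM (interval -0.20 to 0.12, p = 0.580, exact permutation test). ACTB differed by -0.41 (interval -0.74 to -0.05, p = 0.0277, exact permutation test) with TMM and by -0.24 (interval -0.49 to 0.02, p = 0.0643, exact permutation test) in CPM. For ACTB with TMM the p rose above 0.05 without heifer 3, 44 or 48, reaching 0.0566.

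GAPDH gave the smallest difference in CPM, -0.00 with an interval of -0.08 to 0.08 (p = 0.995, exact permutation test), so that on that scale the interval left room for a shift of 0.08 in either direction. With TMM the GAPDH difference was -0.16 (interval -0.34 to 0.00, p = 0.0519, exact permutation test), and it passed the threshold when heifer 4, 33, 37 or 42 was left out, with a lowest p of 0.0262. YWHAZ had the widest interval in CPM, -0.18 to 0.67 around a difference of 0.24 (p = 0.235, exact permutation test). With TMM its difference was 0.08 (interval -0.25 to 0.41, p = 0.607, exact permutation test), an interval that does not show equal levels. These p-values were not adjusted over the 5 genes.

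The choice between the scales moved all genes together. Over all genes tested the median log2 fold change was 0.01 with TMM and 0.18 with library size alone, and edgeR's calls shifted with it, from 449 higher and 269 lower genes with TMM to 917 higher and 96 lower with library size alone. The TMM split itself was 87 higher and 9 lower without heifer 39, 81 and 12 without heifer 42, and 98 and 16 without heifer 34. With library size alone 1013 genes were called (8.26%), and none of the 5 reference genes was among them. B2M came nearest, with a log2 fold change of -0.46 (edgeR, Benjamini-Hochberg adjusted p = 0.0295) that is short of the limit of 0.5, while the adjusted p of the other 4 was 0.141 or more. Relative to the median of all genes the 2 scalings gave nearly the same values. That follows from the scaling itself, which moves all genes by nearly the same amount, and is no separate test of the shifts. Measured from that median, B2M lay at -0.64, ACTB at -0.42, PPIA at -0.22 and GAPDH at -0.18 with both scalings, and YWHAZ lay at 0.08 with TMM and 0.09 with library size.

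**Figure D2:**
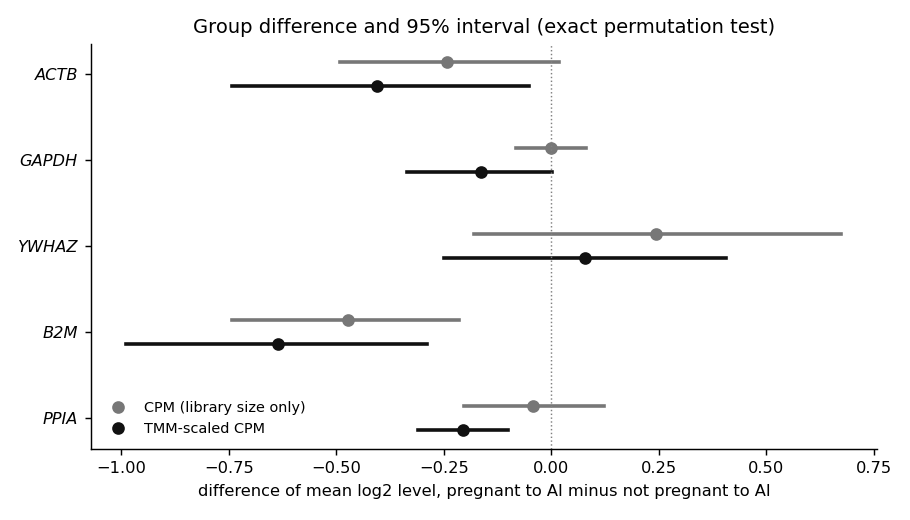
Difference of the group means of log2 level, pregnant to AI minus not-pregnant, for each reference gene in CPM and in TMM-scaled CPM, with 95% intervals from the exact permutation test (n = 8 and n = 7). The B2M intervals lie below 0 on both scales, PPIA and ACTB lie below 0 with TMM only, and the YWHAZ interval includes 0 on both.

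Stability over the 15 heifers was described by the SD of the log2 level, with no test. In TMM-scaled CPM the order from least to most variable was PPIA with an SD of 0.14, GAPDH with 0.16, YWHAZ with 0.28, ACTB with 0.37 and B2M with 0.45. The ranges of these SDs over the fits without 1 heifer did not overlap, at 0.13 to 0.14 for PPIA, 0.15 to 0.17 for GAPDH, 0.25 to 0.30 for YWHAZ, 0.35 to 0.38 for ACTB and 0.38 to 0.46 for B2M. Those fits share nearly all heifers, so such ranges are narrow by construction and do not measure the uncertainty of an SD. A robust SD from the median absolute deviation put GAPDH, at 0.09, before PPIA, at 0.18, so the order of these 2 depends on the measure. By the robust SD, YWHAZ, at 0.31, lay close to ACTB, at 0.33. The highest heifer had 1.34 times the level of the lowest for PPIA and 3.00 times for B2M.

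In CPM the order was different. GAPDH had the smallest SD, 0.07, followed by PPIA with 0.14, ACTB with 0.25, B2M with 0.33 and YWHAZ with 0.39. The coefficient of variation was 4.84% for GAPDH in CPM against 11.8% with TMM, and 26.9% for YWHAZ in CPM against 19.7% with TMM. PPIA had much the same coefficient on both, 9.56% in CPM and 9.62% with TMM. Counting error was far smaller than these spreads, since the Poisson coefficient of variation was at most 2.86% for YWHAZ and at most 1.02% for the other 4 genes. Within groups on the TMM scale the pooled SD was 0.09 for PPIA, 0.15 for GAPDH, 0.29 for YWHAZ, 0.31 for ACTB and 0.32 for B2M, so PPIA and B2M lost the largest share of their spread when each group was taken about its own mean.

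Reference genes are expected to vary less than most genes, which was measured by ranking each SD among all 12270 genes. In CPM only 18 genes (0.147%) had a smaller SD than GAPDH, and 7.25% had a smaller SD than PPIA. ACTB ranked above 34.8% of genes, B2M above 52.6% and YWHAZ above 61.7%. The last 2 were thus more variable than the median gene, whose SD was 0.32. With TMM a smaller SD was found in 9.36% of genes for PPIA, 16.7% for GAPDH, 49.1% for YWHAZ, 63.7% for ACTB and 74.9% for B2M, against a median SD of 0.29. The 1620 genes with a mean level no lower than that of YWHAZ had a smaller median SD, 0.22 with TMM, so the ranking was repeated among them. There 18.7% of genes had a smaller SD than PPIA, 29.5% than GAPDH, 66.3% than YWHAZ, 79.1% than ACTB and 86.8% than B2M on the TMM scale.

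**Figure D3:**
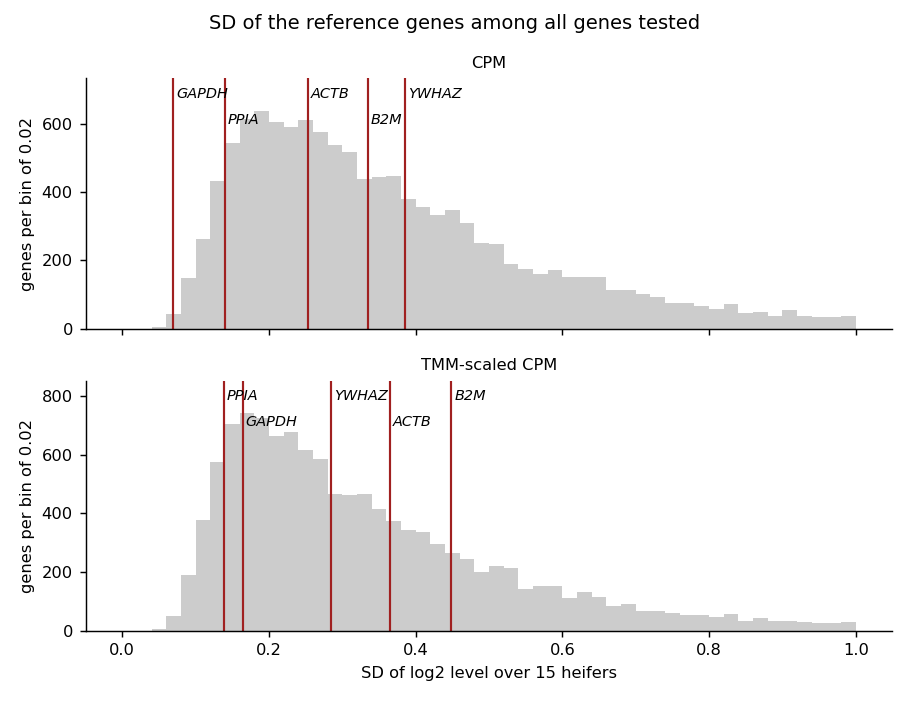
Number of genes by the SD of their log2 level over 15 heifers, in bins of 0.02, for CPM above and TMM-scaled CPM below, with a line at each reference gene (genes with an SD above 1 are not drawn). GAPDH stands at the low edge in CPM, ahead of all but 18 genes, and moves into the body of the distribution with TMM, where B2M lies above 74.9% of genes.

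A ratio of 2 counts from the same library needs no scaling and corresponds to the difference between the cycle values of 2 reference genes in quantitative PCR. All 10 ratios among the 5 genes were compared, with p-values adjusted over the 10 by the Benjamini-Hochberg method. The GAPDH/B2M ratio was the one that differed between groups after adjustment. It had a lowest value of 0.281, a median of 0.349 and a highest value of 0.501 (heifer 43) in heifers pregnant to AI. In not-pregnant heifers the lowest was 0.233 (heifer 3), the median 0.250 and the highest 0.310. The ratio was above every not-pregnant heifer in 7 of 8 heifers pregnant to AI. The log2 difference was 0.47 (interval 0.25 to 0.70, exact permutation p = 0.000622, adjusted p = 0.00622), and leaving out single heifers kept it within 0.40 to 0.52.

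The GAPDH/PPIA ratio was the steadiest of the 10. It ranged from 0.941 (heifer 42) to 1.45 (heifer 4), with an SD of 0.19 on the log2 scale. Its group difference was 0.04 (interval -0.19 to 0.26, exact permutation p = 0.679, adjusted p = 0.679). The YWHAZ/B2M ratio was the least steady, with an SD of 0.66, from 0.0233 in heifer 48 to 0.123 in heifer 43. Its group difference of 0.72 (interval 0.09 to 1.36) had an exact permutation p of 0.0295 and an adjusted p of 0.0932. The same adjusted p of 0.0932 was found for B2M/PPIA, which differed by -0.43 (interval -0.79 to -0.05, exact permutation p = 0.0270), and for ACTB/GAPDH, which differed by -0.24 (interval -0.46 to -0.02, exact permutation p = 0.0373).

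The remaining 5 ratios had adjusted p-values of 0.132 or more with exact permutation p-values of 0.0659 or more. ACTB/YWHAZ differed by -0.49 and ACTB/B2M by 0.23, YWHAZ/PPIA by 0.28, GAPDH/YWHAZ by -0.24 and ACTB/PPIA by -0.20. Without heifers 4 and 37 the exact permutation test adjusted over 10 ratios passed 0.05 for ACTB/GAPDH (difference -0.37, p = 0.00389), B2M/PPIA (-0.61, p = 0.00389), YWHAZ/B2M (0.94, p = 0.0204), ACTB/YWHAZ (-0.74, p = 0.0256) and ACTB/PPIA (-0.41, p = 0.0291). Both heifers were left out because they lay nearer the other group, so these p-values are no valid test of the ratios. The ACTB/B2M difference was smaller without them, at 0.20.

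**Figure D4:**
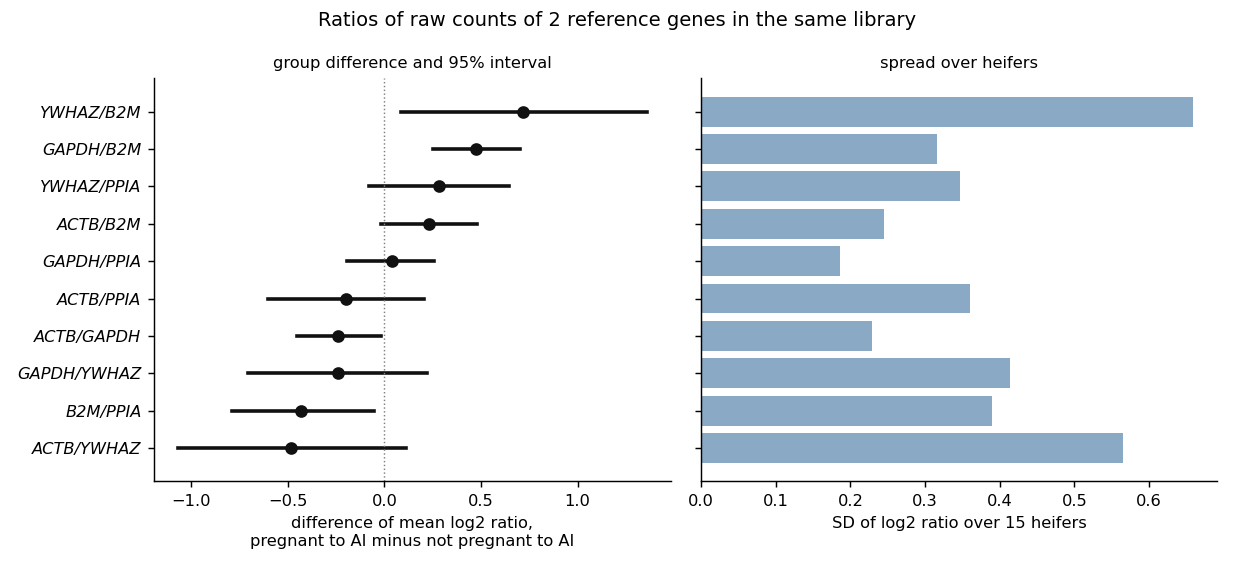
Group difference of each of the 10 log2 ratios with its 95% interval (left, pregnant to AI minus not-pregnant, n = 8 and n = 7) and the SD of the log2 ratio over 15 heifers (right). GAPDH/PPIA has the smallest SD, 0.19, with a difference near 0, and YWHAZ/B2M the largest, 0.66.

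The stability measure M of the geNorm method, the mean SD of a gene's log2 ratios to the other genes, was 0.29 for GAPDH, 0.32 for PPIA, 0.35 for ACTB, 0.40 for B2M and 0.50 for YWHAZ. Removing the gene with the highest M at each step took out YWHAZ, then B2M, then ACTB, and left GAPDH and PPIA with an M of 0.19. Ratios do not see a shift that both genes share. Both genes of this pair had lower means in heifers pregnant to AI on the TMM scale, by -0.16 for GAPDH and -0.21 for PPIA on the log2 scale, of which only the PPIA difference was past 0.05. YWHAZ had the highest M while its group difference with TMM was the smallest of the 5, 0.08 with a wide interval of -0.25 to 0.41. That ranking holds on the TMM scale only. In log2 CPM YWHAZ differed by 0.24 (interval -0.18 to 0.67), while GAPDH and PPIA differed by -0.00 and -0.04.

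Several reference genes are often combined as a geometric mean. Of the 31 combinations of 1 to 5 of these genes, 30 were lower in heifers pregnant to AI on the TMM scale and 27 in CPM, with log2 differences from -0.64 to 0.08 and from -0.47 to 0.24. The mean of all 5 genes differed by -0.27 with TMM and by -0.10 in CPM. The combinations share genes, so these counts follow from the single differences and are a description. On the TMM scale the only gene that was higher, YWHAZ (0.08), differed by less than each other gene (GAPDH came nearest, at -0.16). Every combination except YWHAZ alone was therefore bound to be lower. By heifer on the TMM scale, 4 of 5 genes lay above their overall mean in each not-pregnant heifer except heifer 37, where 2 did. Among heifers pregnant to AI the number was 0 (heifer 47) to 3 (heifer 4). In CPM the numbers were less apart, 2 to 4 in not-pregnant heifers and 1 to 3 in heifers pregnant to AI, with 3 in heifers 4, 34 and 45.

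To describe how far each gene would move all others, edgeR was run on the whole table. The counts of that gene were the only scaling of each library. Scaling to B2M called 8137 of the other 12269 genes (66.3%), 8089 of them higher in heifers pregnant to AI and 48 lower, and the median over all genes was 0.66 on the log2 scale. ACTB as the scaling called 1829 genes (14.9%), 1780 higher and 49 lower, with a median of 0.41. PPIA called 1955 genes (15.9%), 1883 higher and 72 lower, with a median of 0.22. That direction follows from the scaling itself, which subtracts the difference of the reference gene from every other gene.

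GAPDH as the scaling called 569 genes (4.64%), 521 higher and 48 lower, with a median log2 fold change of 0.17. Library size alone, with no reference gene, gave 917 higher and 96 lower genes with a median of 0.18. GAPDH and PPIA themselves differed by -0.00 and -0.04 in log2 CPM. Which part of their medians is bias thus depends on the scale taken as the standard. Scaling to YWHAZ called 29 genes (0.236%), 28 higher and 1 lower, with a median of -0.05, and 1778 genes were at an unadjusted p under 0.05. YWHAZ had the largest SD of the 5 genes in CPM, 0.39, and the part of that spread in its low count of calls was not tested. The geometric mean of all 5 called 2496 genes (20.3%), 2386 higher and 110 lower, with a median of 0.28. The counts with ACTB, GAPDH and YWHAZ rest on single heifers, moving by over 1.5 times without any 1 heifer for ACTB and GAPDH, and for YWHAZ without any 1 except 41 or 45. Leaving out 1 heifer gave 0 (heifer 44, with 4273 genes at an unadjusted p under 0.05 in edgeR) to 6138 calls (heifer 37) with ACTB, 19 (heifer 44) to 2352 (heifer 4) with GAPDH and 0 to 586 (heifer 4) with YWHAZ. With B2M the range was 6397 to 9029, with PPIA 1374 to 2735, and with the geometric mean 1677 to 3633.

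**Figure D5:**
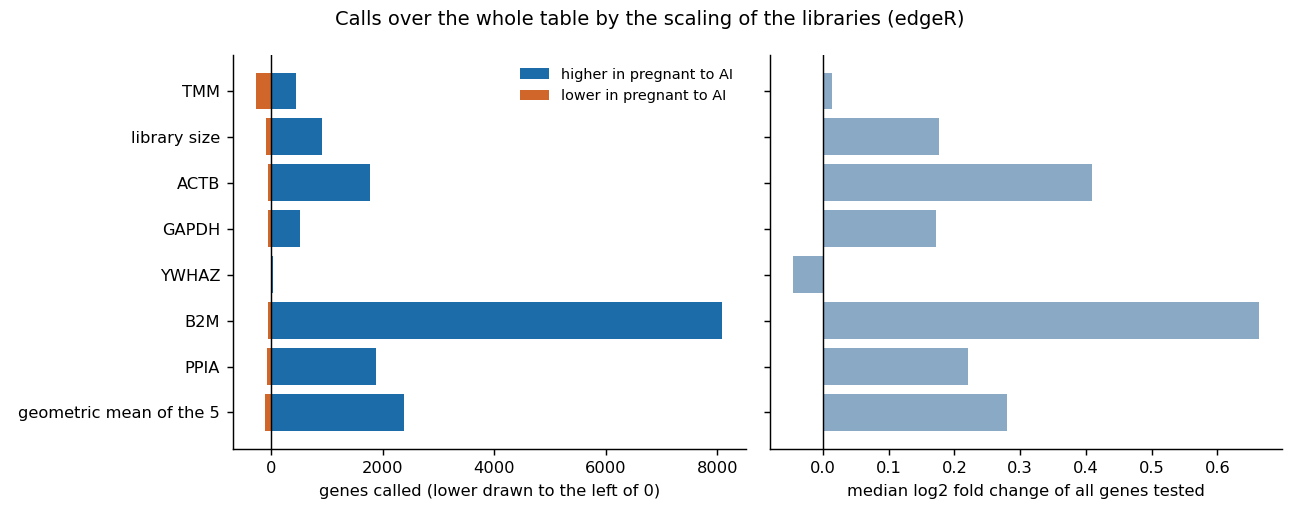
Genes called by edgeR (left, higher to the right of 0 and lower to the left) and the median log2 fold change over the genes tested (right) when libraries are scaled to each reference gene, to the geometric mean of the 5, by TMM or by library size. B2M gives 8089 higher and 48 lower genes with a median of 0.66, against 449 higher and 269 lower with TMM, a split that was 74 and 6 without heifer 48.

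The genes whose levels ran most like each reference gene over the 15 heifers were found by Pearson's r of log2 TMM-scaled CPM. These values are a description over 15 points that share the library scaling. For ACTB the 3 highest r were 0.965 to 0.975, led by ENSBTAG00000011382, for B2M 0.958 to 0.967, led by ENSBTAG00000007737, for GAPDH 0.944 to 0.951, for YWHAZ 0.929 to 0.942 and for PPIA 0.878 to 0.884. The files do not pair these IDs with names. The lists changed with the measure. Of the 3 genes, 1 for ACTB, GAPDH, YWHAZ and PPIA and 2 for B2M were also among the 3 highest by Spearman's rho. In CPM 2 were shared for ACTB, YWHAZ and B2M and 0 for GAPDH and PPIA. The leading gene for B2M was another one in both cases. An r of at least 0.8 was reached by 1124 genes with B2M, 988 with ACTB, 768 with GAPDH, 234 with YWHAZ and 27 with PPIA. In CPM the number was 2 for GAPDH, 24 for PPIA, 259 for ACTB, 280 for B2M and 1533 for YWHAZ. Among the reference genes themselves on the TMM scale, ACTB ran with GAPDH (r = 0.90) and B2M (r = 0.84), GAPDH with B2M (r = 0.87), and YWHAZ ran opposite to GAPDH (r = -0.68), again as a description over 15 heifers. In CPM the same 4 values were 0.46, 0.68, 0.36 and -0.33.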

How the data were processed

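RNA-seq of PWBC from 15 heifers was used, 1 library per heifer. The authors checked reads with FastQC 0.11.9 and MultiQC 1.12, aligned them with STAR 2.7.5 to the cattle genome, and deposited STAR's raw gene counts. The authors also deposited CPM values, which equal the raw counts of the 12270 kept genes scaled by their library total without a composition factor (edgeR 3.28.1 is named in the submitters' processing notes). The annotation release is not given in the sources used here.

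The main test was edgeR 4.0.16 (R 4.3.3) on the deposited raw counts, with TMM, genes at a CPM of 1 or more in 8 or more heifers, the quasi-likelihood test with pregnancy outcome as the only term, and Benjamini-Hochberg adjustment over 12270 genes. Genes were called at an adjusted p no higher than 0.05 with a log2 fold change of 0.5 or more in either direction. Exact permutation tests were two-sided over 6435 divisions of the heifers. Intervals are for the difference of group means, assume that the groups differ by a shift alone, and rest on the variation between these heifers. The counting error given is Poisson error only. The log2 levels ranked over all genes used a prior count of 2. Alternatives were DESeq2 1.42.0, limma-voom (limma 3.58.1), RLE factors, library size, no filter, filterByExpr, limma on the deposited CPM after adding 1 or 0.5 and taking log2, each heifer left out, and heifers 4 and 37 left out. Fits without a heifer kept the same 12270 genes. The scripts were tested on simulated data. Permutation tests used numpy 2.4.6 in Python 3.11.15. Other steps in Python also used pandas 2.3.3 and scipy 1.17.1, the latter for ranks and to check the permutation test.

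The named genes were the 5 reference genes and, for each, the 3 genes most like it, of which 2 are printed by ID. No measured value enters the rule for the 5 genes, but they and the lists were chosen with earlier results of these data known. Planned gene lists and leukocyte markers were not analysed here, because no table used here pairs the Ensembl IDs with names (0 of 37063 RefSeq genes carry an Ensembl ID). Sequences and positions were not analysed, because no genome sequence of the build was at hand. The labels give no batch, so none was tested.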

Additional observations from a re-analysis of the deposited data

Results flagged for a closer look

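Each group's levels and ratios were examined for a heifer whose gap to the nearest other, divided by the group's range, passed Dixon's 95% critical value (0.526 for 8 heifers, 0.568 for 7). Of 40 sets examined 9 passed, where chance gives about 1 in 20. Heifer 4 (pregnant to AI) accounted for 8 of them, and the sets share genes and heifers.

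ACTB in heifer 4 was 7230 TMM-scaled CPM against 4705 in the next heifer of its group (gap 0.725 of the range), and 6626 CPM against 5252 (0.534). GAPDH in heifer 4 was 899.9 TMM-scaled CPM against 781 (0.579). PPIA in heifer 4 was the lowest in CPM, 567.6 against 686 (0.581). Of the ratios to PPIA in this heifer, those of ACTB, GAPDH and B2M were the highest of its group. ACTB/PPIA was 11.7 against 7.54 (0.704), GAPDH/PPIA 1.45 against 1.19 (0.689) and B2M/PPIA 5.17 against 3.65 (0.529). YWHAZ/PPIA in heifer 4 was 0.159, inside the range of its group, 0.119 to 0.284. The ACTB/GAPDH ratio of heifer 4 was 8.03 against 6.45 (0.542). In the not-pregnant group, heifer 44 had an ACTB/B2M ratio of 2.36 against 1.86 in the next heifer (0.688). No cause of these values was tested. Without heifer 4 the log2 group difference was -0.0023 for PPIA in CPM and -0.31 for ACTB/PPIA, against -0.04 and -0.20 with it.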

How the results depend on the processing

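No paired analysis was possible because heifer IDs differ between the groups. The alternatives left most results on the same side of 0.05 and in the same direction, but many of those were not past 0.05 in the main test. The 2 edgeR results past it were less steady. With single heifers left out, the adjusted p rose above 0.05 in 7 of 15 fits for B2M and in 13 of 15 for PPIA. The PPIA log2 fold change lost its edgeR or limma adjusted p of 0.0498 with RLE size factors (-0.20, adjusted p = 0.0511), library size only (-0.045, 0.696), no filter (-0.20, 0.106), filterByExpr (-0.20, 0.0538) and limma on deposited CPM with 1 added (-0.0418, 0.722) or 0.5 added (-0.0419, 0.723), and kept it in DESeq2 (0.00644) and limma-voom (0.0446). Without heifers 4 and 37 the edgeR values were -0.61 for ACTB and -0.24 for GAPDH, the exact permutation differences were -0.38 for ACTB in CPM, -0.23 for GAPDH with TMM and 0.029 for PPIA in CPM (opposite sign, p = 0.649), and the ratios were -0.37 for ACTB/GAPDH, -0.74 for ACTB/YWHAZ, -0.41 for ACTB/PPIA, 0.94 for YWHAZ/B2M, -0.61 for B2M/PPIA and -0.040 for GAPDH/PPIA (opposite sign, p = 0.675). The SD of GAPDH was 0.0697 with library size only and 0.0945 from the median absolute deviation. Genes called with the reference scaling were 3484 (ACTB), 1356 (GAPDH) and 239 (YWHAZ) in DESeq2, and without heifers 4 and 37 they were 7516 (ACTB), 3335 (GAPDH), 1251 (YWHAZ), 3213 (PPIA) and 4557 (geometric mean). Calls were 718 in edgeR with TMM and 1116 in DESeq2 with its own size factors. In edgeR with TMM they were 448 with no filter, 2506 without heifers 4 and 37, and 80 (heifer 48) to 1875 (heifer 4) with each heifer left out.

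Leaving out each heifer gave log2 fold changes of -0.53 to -0.35 for ACTB, -0.72 to -0.55 for B2M, -0.23 to -0.18 for PPIA, -0.21 to -0.14 for GAPDH and 0.023 to 0.16 for YWHAZ. The exact permutation differences ran from -0.31 to -0.19 for ACTB in CPM, -0.50 to -0.35 for ACTB with TMM, -0.0258 to 0.0258 for GAPDH in CPM (opposite sign in 8 of 15), -0.20 to -0.13 for GAPDH with TMM, -0.073 to -0.0023 for PPIA in CPM, and for YWHAZ 0.0080 to 0.16 with TMM and 0.16 to 0.33 in CPM. The ratios ran from -0.30 to -0.19 for ACTB/GAPDH, 0.56 to 0.84 for YWHAZ/B2M, -0.52 to -0.36 for B2M/PPIA, -0.31 to -0.12 for ACTB/PPIA and -0.0042 to 0.0847 for GAPDH/PPIA (opposite sign in 3 of 15). Calls with the reference scaling ran from 0 to 6138 (ACTB), 19 to 2352 (GAPDH) and 0 to 586 (YWHAZ, with 1151 to 1661 genes at an unadjusted p under 0.05 in the 7 edgeR fits that called none). The cause was not tested. Counting error of the 5 genes was below their spread between heifers.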
